A study of Mus musculus with 6 samples.

Results

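The 10 genes described here encode MAP kinase phosphatases (Dusp1, Dusp2, Dusp4, Dusp5, Dusp6 and Dusp14), inhibitors of the Sprouty family (Spry2, Spry4 and Spred1) and Etv5, a transcription factor that the ERK pathway induces. They were chosen by symbol out of the 52550 genes listed for every library, and the choice was made with the differences between sham and TBI in these libraries known. Values of that contrast are therefore given for these genes as a description, and the counts of calls among them support nothing. Hippocampal RNA was taken 24 h after surgery from 6 adult male C57BL / 6 mice, 3 with traumatic brain injury (TBI) and 3 sham-operated. TBI was a controlled cortical impact of moderate severity over the right parietal cortex. Sham mice had the same ketamine and xylazine anaesthesia, incision and craniotomy without the impact, so effects of surgery are shared by both groups. The paper says that tissue of the whole hippocampus was studied. Its methods describe exposing the hippocampus on both sides and do not say which side entered a library. Each mouse gave 1 library, named Sham1 to Sham3 and TBI1 to TBI3.

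Growth factors and synaptic activity switch on a kinase relay that runs from Ras through RAF and MEK to ERK, and active ERK turns on genes that shut the relay down again. The phosphatases remove the activating phosphates from ERK, JNK or p38, while Sprouty and Spred proteins act higher up, between the receptor and RAF. In the hippocampus the pathway is known for its part in plasticity, and several of these genes are used as readouts of recent ERK signalling.

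The libraries held 31630936 to 41771872 estimated counts, and 18795 genes were kept for testing, among them all 10 feedback genes. Levels are given in CPM, estimated counts scaled by library total and TMM factor. The contrast was fitted for all genes with the quasi-likelihood test of edgeR, and a gene was called at a p under 0.05, a Benjamini-Hochberg adjusted p under 0.1 and a change over 1.5-fold. A positive log2 fold change means more in TBI. Because a bulk sample mixes cell types, fewer cells of a type and less RNA per cell cannot be told apart. All 8 markers of hippocampal principal neurons had counts in every library, but several libraries stood apart from the rest. In TBI1 the summed level of 10 striatal markers was 4976 CPM, against 162 to 247 CPM in the other 5 libraries, with 0 of the 10 at a count of 0 in any library. In TBI3 the sum of 8 cerebellar markers was 2105 CPM, against 88.1 to 205 CPM elsewhere, and 2 of the 8 were at 0 in at least 1 library. Sham2 had 4979 CPM for 8 reactive astrocyte markers, more than any TBI library (651 to 1776 CPM), and 1 of the 8 was at 0 in some library. The sum of 8 choroid plexus markers was 54.6 CPM in Sham2, 243 CPM in TBI1 and 261 CPM in TBI3. In Sham1, Sham3 and TBI2 it was 2039 to 2375 CPM. The sum of 8 thalamic markers ran from 139 CPM in Sham2 and 149 CPM in TBI1 to 989 CPM in TBI3. The summed level of the hippocampal neuron markers was 652 to 855 CPM in sham and 389 to 578 CPM in TBI. In TBI1 most of the sum of 409 CPM came from Wfs1, at 276 CPM against 91.8 to 175 CPM in sham. Each other marker of that list was lower in TBI1 than in every sham library, such as C1ql2 at 2.45 CPM against 56.7 to 86.0 CPM. How far these shifts bear on the feedback genes was not tested, and values without Sham2, TBI1 or both are set beside most feedback genes and the medians of the pathway lists.

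Promoter windows before RefSeq transcript starts (GRCm38.p6) were searched for 8 of the 10 genes, with 9 start sites in all. Dusp4 and Spry4 were not among them, so nothing is said here of their promoters. The stretches of Dusp1 and Dusp5 are shown because these held the motifs known as targets of CREB and of serum response factor, the factors through which activity and growth factors turn on immediate early genes. Each runs from 250 to 51 bases before the transcript start, written 5′ to 3′ on the strand of the gene, and capitals mark the motifs.
Dusp1 (chr17:26508523-26508722, minus strand): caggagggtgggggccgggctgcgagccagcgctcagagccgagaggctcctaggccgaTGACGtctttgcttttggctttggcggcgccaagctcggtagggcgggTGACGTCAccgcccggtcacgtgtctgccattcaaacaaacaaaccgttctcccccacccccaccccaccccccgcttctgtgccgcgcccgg
Dusp5 (chr19:53528895-53529094, plus strand): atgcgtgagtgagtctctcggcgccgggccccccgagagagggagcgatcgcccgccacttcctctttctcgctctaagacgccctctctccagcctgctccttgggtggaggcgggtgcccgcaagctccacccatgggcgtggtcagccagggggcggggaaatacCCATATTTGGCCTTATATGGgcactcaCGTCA

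The cyclic AMP response element (CRE, TGACGTCA) was found in the Dusp1 stretch, beginning 143 bases before the start. It was present in 272 of 32851 promoter windows of the same length (0.828%), on either strand. Its core TGACG, which the full element contains, was found in Dusp1 also at 191 bases and in Dusp5, on the opposite strand, at 55 bases, and in 12.7% of all windows. Dusp5 held a pair of adjacent CArG boxes, beginning 82 and 72 bases before the start, and 1.157% of all windows held at least 1. The ETS core CCGGAA was found in Dusp14 (8.027% of all windows). None of the 9 windows had the AP-1 motif TGANTCA (5.574% of all), the EGR motif GCGTGGGCG (0.353% of all) or TATAAA (9.141% of all). These matches describe letters in the window and not binding.

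Among the feedback genes, Dusp4 was the one whose groups were separate, and its level was 2.16-fold lower in TBI, which describes the contrast that chose the gene. Separate groups in either direction were seen in 10.2% of all genes tested. The gene, which encodes a nuclear phosphatase of ERK and JNK (ENSMUSG00000031530.6), spans bases 34807297 to 34819894 of chromosome 8, plus strand, in the build GRCm38, which holds for all positions given. Its level was 31.2, 34.1 and 24.6 CPM across Sham1 to Sham3, against 11.5, 17.9 and 12.4 CPM across TBI1 to TBI3. All 3 TBI libraries lay below all 3 sham libraries, and the lowest sham library was 1.38 times the highest TBI library. The sham mean of 29.97 ± 4.84 CPM stood against a TBI mean of 13.9 ± 3.46 CPM (SD, n = 3 mice each), with a log2 fold change of -1.11 (standard error 0.228). Without TBI1 the log2 fold change was -0.99, without Sham2 -1.01 and without both -0.89. Groups that did not overlap, with TBI lower, were seen in 5.45% of all genes tested, and an unadjusted p under 0.05 with TBI lower in 2.13%. On the log2 scale relative to the sham mean, Dusp4 was at -1.37, -0.73 and -1.26 in TBI1 to TBI3. The mean over the 8 hippocampal neuron markers was at -2.10, -0.31 and -0.92 in the same libraries, and that over 6 markers of CA1 pyramidal cells at -0.96, -0.17 and -1.14. Markers of dentate granule cells (8 genes) were at -2.40, 0.0091 and 0.38, and those of CA3 pyramidal cells (6 genes) at -1.49, -0.058 and -0.34. In TBI3, the library with the high cerebellar markers, the dentate marker Calb1 had 493 CPM against 128 to 143 CPM in sham. Of the 8 dentate markers in TBI3, 2 lay above all sham libraries (Calb1 and Plk5), 2 below (Prox1 and C1ql2) and 4 within their range. The part of these neurons in the level of Dusp4 was not tested.

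**Figure D1:**
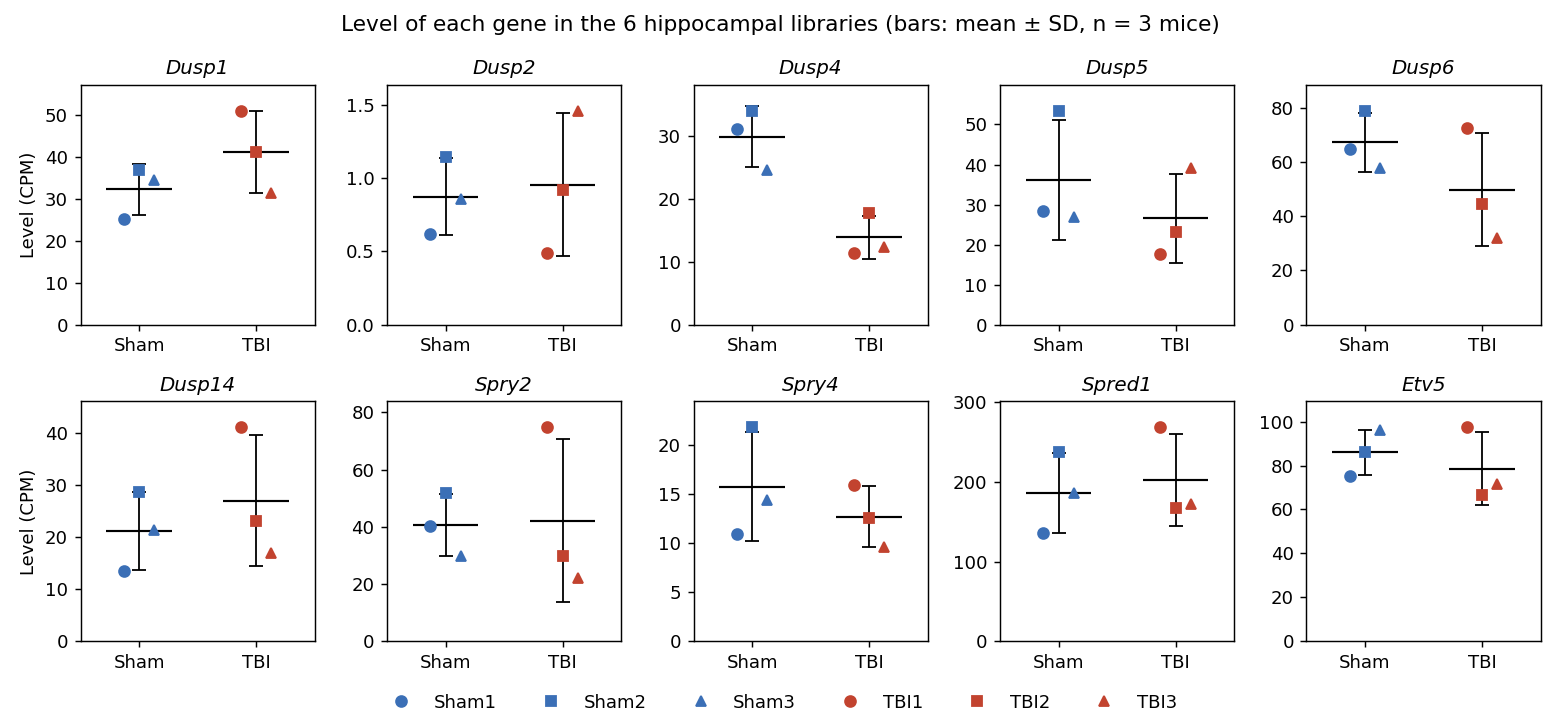
Level of each feedback gene in CPM (vertical axes, each starting at 0) in the 3 sham and 3 TBI libraries, with horizontal lines for the mean and bars for the SD (n = 3 mice). The TBI libraries of Dusp4 (11.5 to 17.9 CPM) all lie below its sham libraries (24.6 to 34.1 CPM), and in the other 9 genes the groups overlap.

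By edgeR's test 0 of the 18795 genes were called (0%), so 0 of the 10 feedback genes were, and 1 of them, Dusp4, had an unadjusted p under 0.05. Over all genes 806 (4.29%) reached that p. DESeq2 with its defaults, the tool of the study, called 46 of 20988 genes with an adjusted p (0.219%), 19 of them lower in TBI (0.0905%). Dusp4 was among these 19 and was the only feedback gene called, and the call was lost when Sham1, Sham2, TBI1 or TBI3 was left out. The total of 46 ran from 33 to 325 with 1 library left out. Nothing is read from these counts, since this contrast was known when the genes were chosen. The median log2 fold change of the 10 genes was -0.038, with 5 higher and 5 lower, and that of all genes tested was 0.0091.

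Dusp6 and Dusp5 encode phosphatases that act on ERK alone, Dusp6 in the cytoplasm and Dusp5 in the nucleus. The level of Dusp6 (plus strand of chromosome 10, 99263231 to 99267489) was 64.9, 78.9 and 57.7 CPM across Sham1 to Sham3, against 72.6, 44.6 and 31.9 CPM across TBI1 to TBI3. TBI2 and TBI3 lay below the sham libraries, and TBI1 lay among them. Its log2 fold change was -0.43 (standard error 0.304), and it was -0.81 without TBI1, -0.30 without Sham2 and -0.20 without TBI3. Dusp5 (plus strand of chromosome 19, 53529109 to 53542431), whose promoter window held the CArG boxes, had 28.4, 53.5 and 26.8 CPM in sham and 17.5, 23.2 and 39.1 CPM in TBI. Sham2 was highest and TBI1 lowest, and TBI3 lay within the sham range. The log2 fold change of Dusp5 was -0.44 (standard error 0.385), -0.83 without TBI3, -0.052 without Sham2, and 0.18 without both Sham2 and TBI1, the opposite direction. An antisense gene annotated in GENCODE vM21 covers 22.12% of the exonic bases of Dusp5, and as the strandedness of the libraries is not given in the sources used here, reads from that stretch could belong to either.

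Dusp1, an immediate early gene whose product acts in the nucleus on p38, JNK and ERK, had the CRE in its promoter window. It lies on the minus strand of chromosome 17 from 26505590 to 26562128, a span over 6 annotated transcripts that holds the promoter window. Its level was 25.2, 36.9 and 34.4 CPM across Sham1 to Sham3, against 50.9, 41.1 and 31.4 CPM across TBI1 to TBI3. TBI1 and TBI2 lay above the sham libraries and TBI3 between Sham1 and Sham3. The log2 fold change was 0.36 (standard error 0.228) and ran from 0.17 without TBI1 to 0.51 without TBI3. Dusp14 (minus strand of chromosome 11, 84048041 to 84069261) encodes a small atypical phosphatase without the kinase docking domain of the others. It had 13.5, 28.6 and 21.4 CPM in sham and 41.1, 23.0 and 16.9 CPM in TBI. TBI1 was above all other libraries, whereas TBI2 and TBI3 lay within the sham range. The log2 fold change of 0.35 (standard error 0.398) was -0.085 without TBI1 and 0.63 without Sham2. Dusp2 (plus strand of chromosome 2, 127336159 to 127338376), best known from activated immune cells, was close to the limit of detection. Its estimated counts were 25, 46 and 33 in sham and 20, 29 and 52 in TBI, with TBI1 below and TBI3 above all sham libraries and TBI2 among them. Its log2 fold change was 0.13 (standard error 0.525), with -0.32 when TBI3 was left out, 0.44 without TBI1, 0.37 without Sham2 and 0.69 without both Sham2 and TBI1.

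Spry2 and Spry4 encode inducible inhibitors of signalling between receptor tyrosine kinases and RAF. Spry2 (minus strand of chromosome 14, 105891947 to 105896819) had 40.2, 51.8 and 29.9 CPM across Sham1 to Sham3, against 74.8, 29.7 and 21.9 CPM across TBI1 to TBI3. TBI1 was the highest of the 6 libraries, and TBI2 and TBI3 were the lowest. The largest and smallest TBI values differed by 3.41 times, the widest such ratio among the 10 genes. The log2 fold change of Spry2 was 0.053 (standard error 0.470) with all libraries and -0.65 without TBI1. Spry4 (minus strand of chromosome 18, 38586247 to 38601415) had 10.99, 21.9 and 14.4 CPM in sham and 15.9, 12.5 and 9.67 CPM in TBI. Sham2 was highest and the other libraries overlapped. Its log2 fold change was -0.31 (standard error 0.310), and it was 0.0012 without Sham2. Spred1 (plus strand of chromosome 2, 117121374 to 117182279) encodes a membrane protein that brings neurofibromin to Ras. It had 136, 237 and 186 CPM in sham and 269, 167 and 172 CPM in TBI. Sham2 and TBI1 stood above the other 4 libraries, and the log2 fold change of 0.12 (standard error 0.267) was -0.14 without TBI1 and 0.33 without Sham2.

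Etv5, an ETS family transcription factor of the PEA3 group, lies on the minus strand of chromosome 16 from 22381309 to 22439719. Its level was 75.4, 86.3 and 96.1 CPM across Sham1 to Sham3, against 97.4, 66.7 and 71.5 CPM across TBI1 to TBI3. TBI2 and TBI3 lay below the sham libraries and TBI1 above them. The log2 fold change was -0.13 (standard error 0.180), and it ran from -0.31 without TBI1 to -0.029 without TBI2, with -0.046 without Sham3. Etv5 had the smallest spread in sham, with a coefficient of variation of 12.1%, whereas Dusp5 had the largest, 41.3%.

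**Figure D2:**
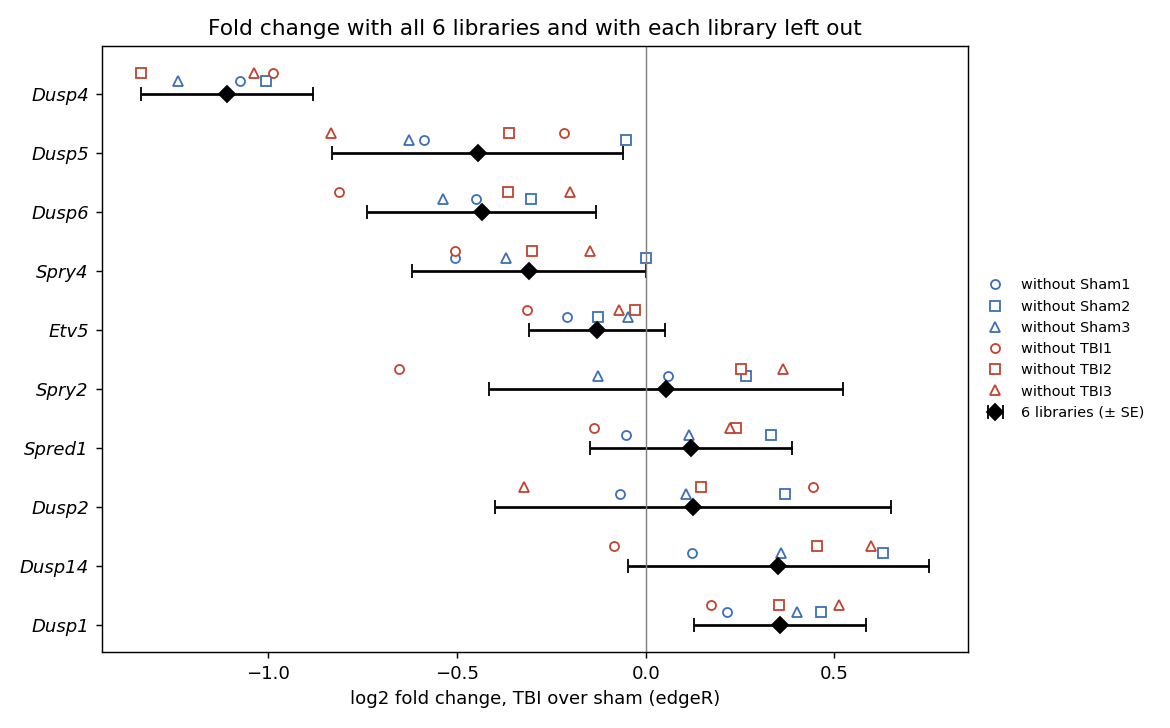
Log2 fold change of TBI over sham (horizontal axis) for each feedback gene, with all 6 libraries (black, bars for the standard error) and with each library left out (open symbols). Dusp4 stays between -1.34 and -0.99, while Spry2 moves from 0.053 to -0.65 without TBI1.

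Within the groups the feedback genes varied with the library. In 9 of the 10 genes Sham2 was the highest of the 3 sham libraries, the exception being Etv5. Over all genes tested Sham2 was the highest sham library in 38.9%. Among the TBI libraries, TBI1 was the highest in 7 of the 10, against 36.1% of all genes, and the exceptions were Dusp2, Dusp4 and Dusp5. Over all 6 libraries TBI1 held the highest value in 5 of the 10 and Sham2 in 4, against 19.7% and 23.7% of all genes. The 10 genes share libraries, and several are known to respond to the same pathway, so these shares are a description. Beside them stand the marker levels already given, the reactive astrocyte markers in Sham2 and the striatal markers in TBI1, and Sham2 also had the lowest sum of 8 oligodendrocyte markers (3128 CPM against 9320 to 11337 CPM elsewhere). Their part in the pattern was not tested.

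**Figure D3:**
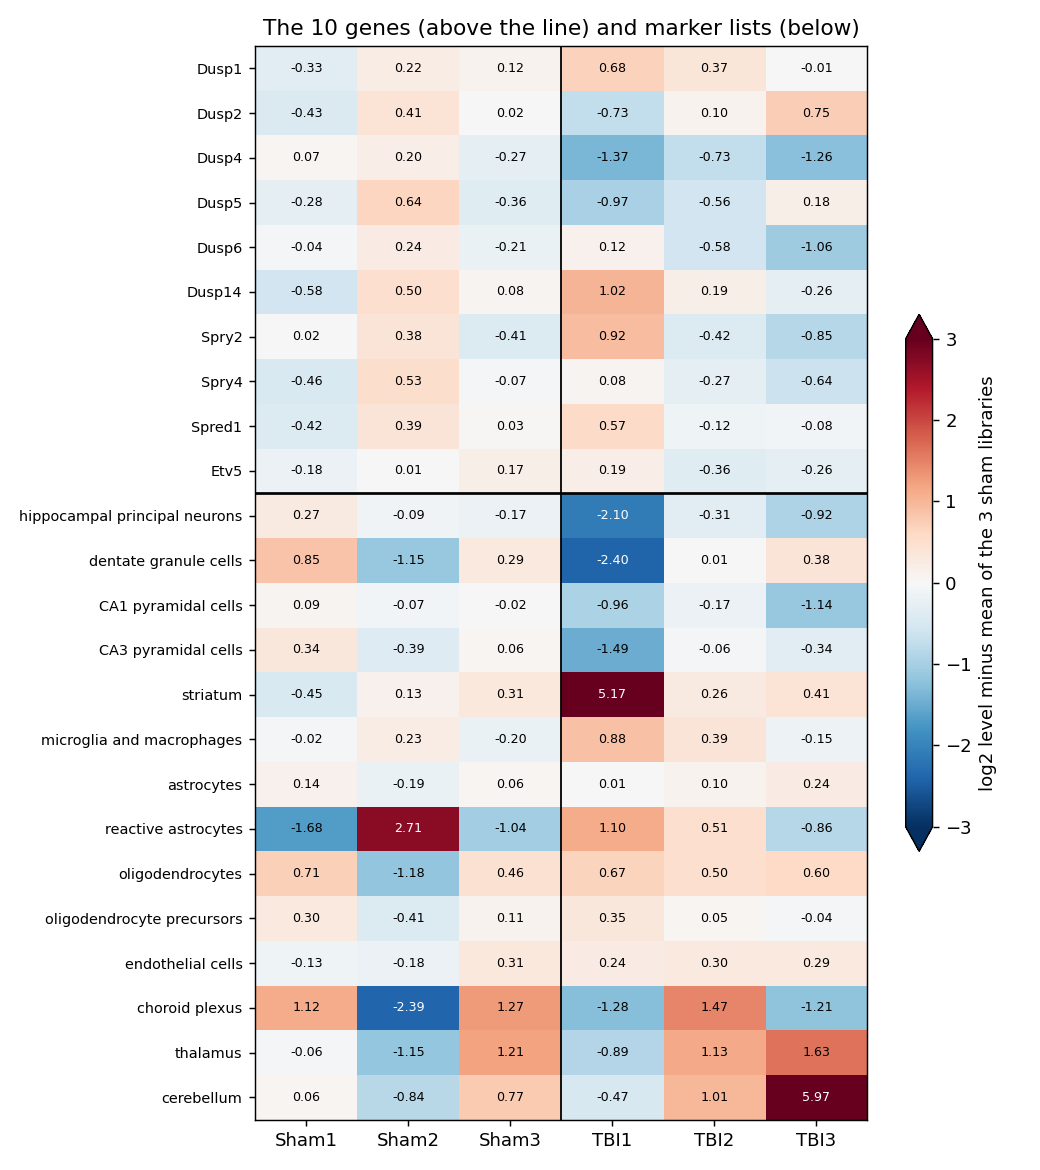
Log2 level of the 10 feedback genes (above the line) and mean log2 level of marker lists (below) in each library, minus the mean of the 3 sham libraries, with red for higher and blue for lower (the colour scale saturates at 3 in either direction). Dusp4 is blue in all 3 TBI libraries (-1.37, -0.73 and -1.26), striatal markers stand out in TBI1 (5.17), cerebellar markers in TBI3 (5.97) and reactive astrocyte markers in Sham2 (2.71).

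Levels of different genes can be compared only per length, and for this the CPM were divided by the kilobases of exon in GENCODE vM21. In sham the order from high to low was Spred1 (27.5 ± 7.46 CPM per kilobase, SD, n = 3), Dusp6 (21.5 ± 3.44), Etv5 (20.9 ± 2.53), Spry2 (19.5 ± 5.23), Dusp5 (14.6 ± 6.05), Dusp4 (10.9 ± 1.77), Dusp14 (10.9 ± 3.87), Dusp1 (9.72 ± 1.86), Spry4 (3.31 ± 1.17) and Dusp2 (0.437 ± 0.132). Neighbours from Spred1 down to Dusp1 had overlapping ranges over the sham libraries. Dusp1 and Spry4 were separate, as were Spry4 and Dusp2. In TBI, Dusp4 came eighth of the 10 with 5.07 ± 1.26 CPM per kilobase (SD, n = 3). As a share of the summed level per length of the 6 phosphatases, Dusp4 held 19.5%, 14.5% and 15.0% over Sham1 to Sham3 against 5.88%, 11.9% and 9.13% over TBI1 to TBI3. The share of Dusp1 was 13.0%, 13.0% and 17.3% in sham and 21.6%, 22.6% and 19.2% in TBI. In both shares the groups did not overlap, with Dusp4 lower and Dusp1 higher in TBI. In its own level Dusp1 overlapped between the groups, and the share of Dusp4 repeats the contrast that chose the gene. The shares are parts of 1 sum and so depend on each other. That sum was 68.1 ± 15.3 CPM per kilobase in sham and 58.5 ± 11.3 in TBI (SD, n = 3 each), a difference within the spread between libraries.

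The genes with the profile nearest to Dusp4 over the 6 libraries were Ak5, a neuronal adenylate kinase, Bdnf, a neurotrophin that signals to ERK through its receptor Ntrk2, and Nptxr, a receptor for neuronal pentraxins. Likeness was the root mean square difference of log2 levels after subtracting each gene's sham mean, and it was 0.13 for Ak5, 0.13 for Bdnf and 0.14 for Nptxr, among 18794 genes. Bdnf had 57.8, 78.9 and 46.6 CPM across Sham1 to Sham3, against 22.6, 34.7 and 28.7 CPM across TBI1 to TBI3. Sham2 was highest, TBI1 lowest and the groups did not overlap, a likeness to Dusp4 that follows from how Bdnf was picked. Among the other feedback genes Dusp6 was nearest to Dusp4, with a difference of 0.62 that placed it at rank 1332.

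The rest of the pathway was read from 11 lists of 136 genes, of which 129 were tested. By edgeR's test 0 were called, 4 had an unadjusted p under 0.05 and were higher in TBI, and 8 were lower, against 2.16% and 2.13% of all genes. The 15 genes (TBI lower) and 5 genes (TBI higher) whose groups did not overlap compare with 5.45% and 4.77% of all genes. DESeq2 with its defaults called 1, Bdnf. The adjusted p of Bdnf was 0.982 by edgeR's test and 0.0513 by DESeq2 with its defaults, and over the alternatives of both tools its log2 fold change of -1.09 (standard error 0.245) kept its sign. The adjusted p ran from 0.00479 with DESeq2 to over 0.99 with edgeR in these alternatives. DESeq2 called 0 of the pathway genes, and so not Bdnf, when Sham1, Sham2 or TBI3 was left out. Each pathway gene named below, like Bdnf, had an adjusted p of 0.982 by edgeR's test.

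Of 5 further MAP kinase phosphatases 3 were higher and 2 lower, with a median log2 fold change of 0.032 that was -0.091 without TBI1, 0.32 without Sham2 and 0.32 without both. Dusp16 and Dusp10, which prefer JNK and p38 to ERK, had the smallest p, with log2 fold changes of 0.33 (standard error 0.178) and 0.87 (standard error 0.476). The level of Dusp10 was 17.4 CPM in TBI3 and at most 8.87 CPM in the other libraries, and without TBI3 its log2 fold change was 0.28. Of 10 tested atypical phosphatases 8 were higher, with a median of 0.24 (0.13 without TBI1, 0.11 without Sham2), and Dusp22 (0.27) and Dusp15 (0.57) led by p, the latter with all TBI libraries above all sham libraries and 0.31 without Sham2. Feedback and Ras inhibitors outside the 10 had 8 of 11 lower and a median of -0.27, which was -0.31 without TBI1, -0.19 without Sham2 and -0.27 without both. Rasa1, a GTPase-activating protein for Ras, was at 67.4 ± 5.73 CPM in the sham mice against 49.7 ± 8.16 CPM after TBI (SD, n = 3 each), with an unadjusted p of 0.0278 by edgeR's test. Spred2, the relative of Spred1, was at 118 ± 4.37 CPM and 97.5 ± 5.94 CPM (unadjusted p = 0.0355). In both genes all TBI libraries lay below all sham libraries. Of the 8 ETS and SRF factors 6 were lower, with a median of -0.23 that was -0.33 without TBI1, -0.068 without Sham2 and -0.026 without both. Elk4 (-0.30, and -0.094 without both) and Etv4 (0.41, and 0.21 without Sham2) led by p.

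Among 16 immediate early genes that ERK is known to induce, 14 had a lower level in TBI, and the median was -0.56 on the log2 scale. Sham2 was the highest sham library in 15 of the 16 genes, and without it the median was -0.15. TBI1 was the highest TBI library in 13 of the 16, and the median was -0.81 without TBI1 and -0.47 without both. Jun, a subunit of AP-1, had 115, 280 and 87.5 CPM across Sham1 to Sham3, against 78.7, 87.2 and 67.8 CPM across TBI1 to TBI3. Its log2 fold change of -1.05 was -0.38 without Sham2. Npas4, a neuronal activity factor, had 10.05, 25.5 and 2.63 CPM in sham and 4.43, 2.62 and 1.10 CPM in TBI. Its log2 fold change was -2.22 (standard error 0.862) and -1.22 without Sham2. The reactive astrocyte markers were highest in the same library, and their part in these values was not tested.

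With all libraries the median was -0.096 for 21 tested ligands, -0.094 for 15 receptor tyrosine kinases, 0.025 for 17 adaptors and Ras activators and -0.026 for 11 genes from RAF to ERK. Without TBI1 these medians were -0.22, -0.096, -0.026 and -0.077, and without Sham2 they were 0.0094, -0.023, -0.014 and -0.075. Besides Bdnf, the ligand with the smallest p was Nrg1, which activates ErbB receptors, at 4.68 ± 0.985 CPM in the sham mice against 7.37 ± 1.29 CPM after TBI (SD, n = 3 each). Ntrk3, the receptor of neurotrophin Ntf3, had a log2 fold change of -0.43 (standard error 0.146) and Fgfr3, an FGF receptor of astrocytes, 0.44 (standard error 0.161). Ptpn11, the phosphatase that carries receptor signals to Ras, had 0.26, and Rasgrf1, a neuronal activator of Ras, had -0.32, and -0.20 without TBI1. Ksr1, the scaffold that holds RAF, MEK and ERK together, was at 126, 111 and 113 CPM across Sham1 to Sham3, against 42.9, 98.9 and 62.1 CPM across TBI1 to TBI3. The groups did not overlap in Ksr1, and its log2 fold change of -0.78 was -0.54 without TBI1. Braf came second in that list by p, with -0.16, and -0.075 without Sham1. The neuronal JNK gene Mapk10 had -0.36 (standard error 0.125) and Mapk8 -0.29, in a list of 7 kinases of the JNK, p38 and ERK5 branches with a median of -0.26 that was -0.14 without TBI1, -0.038 without Sham2 and 0.090 without both. Of 8 kinases downstream of ERK, Rps6ka5 had 0.63 (standard error 0.234) and Rps6ka1 0.90 (standard error 0.405), the latter 0.42 without TBI3. The median of these 8 was -0.031, with -0.17 without TBI1 and 0.18 without Sham2.

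**Figure D4:**
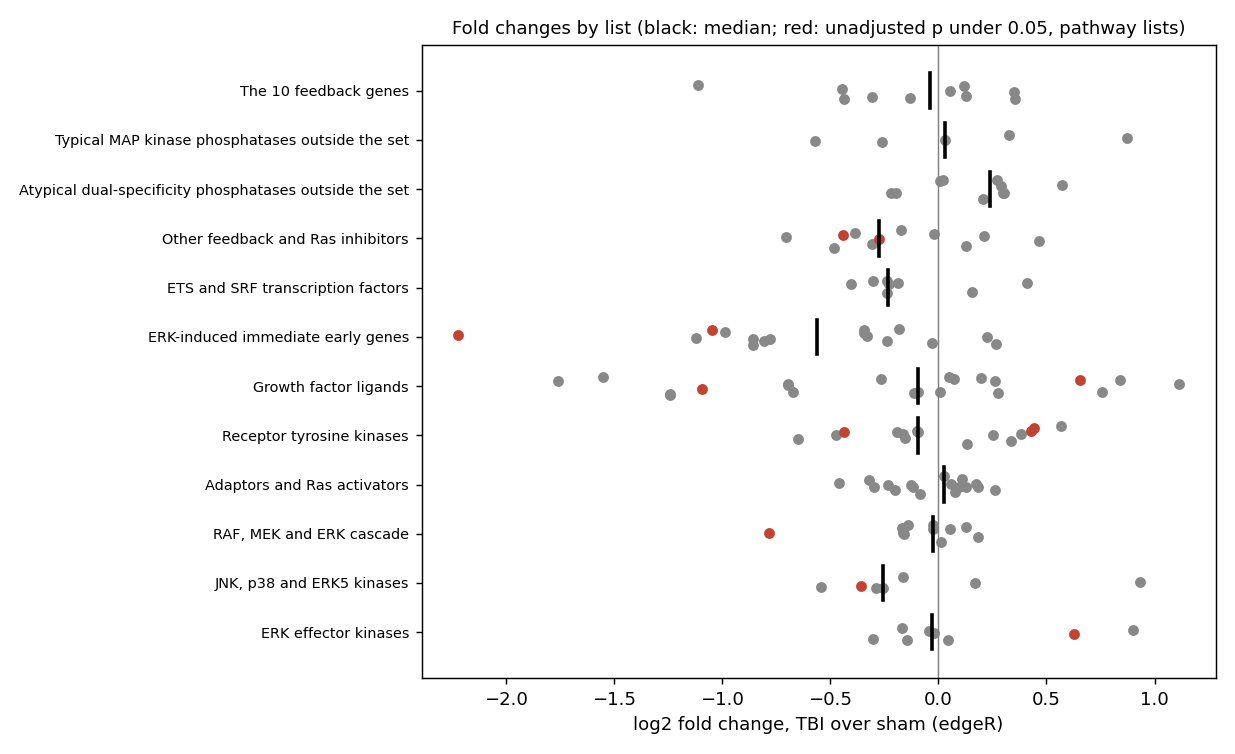
Log2 fold change of TBI over sham (horizontal axis) for the 10 feedback genes and for the tested genes of 11 pathway lists, 1 point per gene, with black bars for the medians and red for an unadjusted p under 0.05 in the pathway lists. Immediate early genes have a median of -0.56 (-0.15 without Sham2), Dusp4 lies at -1.11, and 12 of the 129 pathway genes are red.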

How the data were processed

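Per the labels and methods, the authors ran FastQC, HISAT2 (GRCm38) and StringTie. The deposited values are whole-number estimated counts for each gene, not normalized. The annotation release, strandedness and step from coverage to counts are not given in the sources used here. Low values pile up (5109 values of 4 against 2325 of 3), so these are not tallies of reads, and no counting intervals were computed. IDs without version were matched to GENCODE vM21 symbols for 52403 of 52550 genes, and 3 of the 10 feedback genes had another version there.

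In R 4.3.3, edgeR 4.0.16 (filterByExpr, TMM, quasi-likelihood test) was the main test and DESeq2 1.42.0, the tool of the study, an alternative. Scripts were tested on simulated data in which 200 genes changed 4-fold. At the fitted dispersion edgeR recovered 154 of them with 14 false calls, and DESeq2 recovered 182 with 127 false calls. Standard errors come from the fold change and the F statistic. The members and lists were chosen with earlier results of these data known. Pathway genes named are the 2 of smallest p in each list, and 3 genes are named as nearest to Dusp4. Spry3 was not analysed here. Motifs were searched on both strands.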

Additional observations from a re-analysis of the deposited data

How the results depend on the processing

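Precision was limited by 3 libraries a group, and for Dusp2 also by its low counts. Over all genes, edgeR called 0 under every planned change of scaling, filter or count scale and under the replicate block, between 0 and 1 with 1 library left out, and 3 without Sham2 and TBI1, a choice made after seeing the data. DESeq2 called 46 with its defaults, 43 without independent filtering, 33 to 325 with 1 library left out, 135 with the replicate block and 95 without Sham2 and TBI1. Leaving out Sham1, Sham2 or Sham3 gave 33, 62 or 122 calls, and leaving out TBI1, TBI2 or TBI3 gave 43, 325 or 48. Same-numbered libraries had correlations of their deviations of -0.0996, -0.065 and 0.15. These values showed no sign of pairing by number, but with 3 libraries a group they cannot decide the question.

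Of the 10 feedback genes edgeR called 0 in every fit, and DESeq2 called 1, Dusp4, with its defaults, without independent filtering, with the replicate block, without Sham3 and without TBI2. It called 0 without Sham1, Sham2, TBI1, TBI3 or both Sham2 and TBI1, so that its calls ran from 0 to 1 with 1 library left out. Of the pathway genes DESeq2 called 1 with and without independent filtering, 3 with the replicate block, 0 to 3 with 1 library left out (2 without Sham3, 1 without TBI1 and 3 without TBI2) and 1 without Sham2 and TBI1.

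The log2 fold changes of Dusp1, Dusp4, Dusp6 and Etv5 kept their sign in every fit, Dusp4 between -1.34 and -0.89. With 1 library left out, edgeR gave -0.32 to 0.44 for Dusp2, -0.085 to 0.63 for Dusp14, -0.65 to 0.36 for Spry2, -0.51 to 0.0012 for Spry4 and -0.14 to 0.33 for Spred1, and DESeq2 gave -0.33 to 0.43, -0.098 to 0.62, -0.67 to 0.36 and -0.15 to 0.33 for Dusp2, Dusp14, Spry2 and Spred1. Without Sham1 Dusp2 was -0.067 (-0.080 with DESeq2) and Spred1 -0.053 (-0.065), and without Sham3 Spry2 was -0.13 (-0.13). No fit with counts divided by 4 was had for Dusp2, which the filter then removed. Spry2 was -0.12 with the replicate block (-0.13 with DESeq2), and -0.44 (-0.46) without Sham2 and TBI1, where Dusp5 was 0.18 (0.16). The cause was not tested. In the order of levels per length, 5, 6 and 8 of 10 genes kept their rank without Sham1, Sham2 and Sham3.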
